A study of Bos taurus with 15 samples.

Results

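Biopsies of the udder taken 12 h after an injection of dexamethasone (DEX) were compared with biopsies taken at 0 h, just before the injection, in the same 4 cows. The comparison concerns 8 of the 15 RNA-seq libraries of the study, chosen by the time point in their labels, with 4 at 0 h and 4 at 12 h. The main model was fitted on all 15 libraries, so its errors also draw on those at 24 h and 72 h. All cows were non-pregnant Holsteins in the second lactation, weighed 648 to 838 kg and were 40 to 64 days in milk. Each received a single intramuscular dose of 40 mg of DEX after the first biopsy, and all received ampicillin over the biopsy period. The 0 h tissue came from the left rear gland of the udder and the 12 h tissue from the left front gland, in every cow. The first biopsy was an evening biopsy and that at 12 h therefore fell in the morning. By 12 h each cow had also already had the first biopsy, of another gland, under local anesthesia. Time after DEX, gland, time of day and the earlier biopsy change together and cannot be told apart here. No untreated cows were sampled at 12 h. The study removed 1 cow that stopped ruminating, taken here to be cow 1 because it alone has no library at 72 h. Its 0 h and 12 h libraries are part of the comparison, and the main counts are also given without it.

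Dexamethasone is a synthetic glucocorticoid. It enters cells and binds the glucocorticoid receptor, a transcription factor that then moves to the nucleus and raises some genes and lowers others. In the lactating udder glucocorticoids act with prolactin and insulin to maintain milk protein transcription, whereas a high dose lowers milk yield for a short time. Lactose, the sugar that draws water into milk, is made by an enzyme complex of which alpha-lactalbumin is a part.

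The libraries were made with a 3′ tag method, in which each transcript gives reads from its end only, so that a normalized count compares levels between genes without a correction for length. The values are reads per gene multiplied by a constant for each library and are called normalized counts throughout. The constant does not follow the total of reads on genes alone. The deposited table lists genes by Ensembl identifier, and 0 of its 24616 identifiers could be paired with a symbol through the annotation used here. Genes are therefore described by identifier, by rank or by abundance, and neither the labelled tissue nor gene lists such as lactose synthesis could be checked by symbol. Reads on genes ranged from 1804120 to 4908162 per library at 0 h and from 4526974 to 5794633 at 12 h. Cow 4 had the lowest depth, at 0 h, where 3 reads, taken as the limit of detection, are worth 1.74 normalized counts, against at most 0.661 in any 12 h library.

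Of 13904 genes tested, 732 (5.26%) had an adjusted p under 0.05 at 12 h relative to 0 h, in limma with Benjamini-Hochberg adjustment. Of these, 382 genes (2.75% of those tested) were higher and 350 (2.52%) were lower at 12 h. The count was 525 without cow 1 (307 higher, 218 lower), 368 without cow 3 (206 and 162) and 475 without cow 4 (253 and 222). Fitted on the 0 h and 12 h libraries alone, 1026 of 12929 genes were called (533 higher, 493 lower). With cow as a fixed term in that fit, 964 were called (511 higher, 453 lower). The split between higher and lower genes depends on the scaling. The higher genes made up 52.2% of those called with the normalization of the authors. With the 20 most abundant genes kept out of the library totals used for scaling they made up 42.2% (331 higher, 454 lower). They made up 48.8% with median-ratio scaling, 47.4% with quantile normalization and 43.5% with limma-voom. With cow as a fixed term they made up 48.4% in edgeR and 46.3% in DESeq2. In a bulk biopsy, fewer cells of a type and less RNA per cell cannot be told apart.

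**Figure D1:**
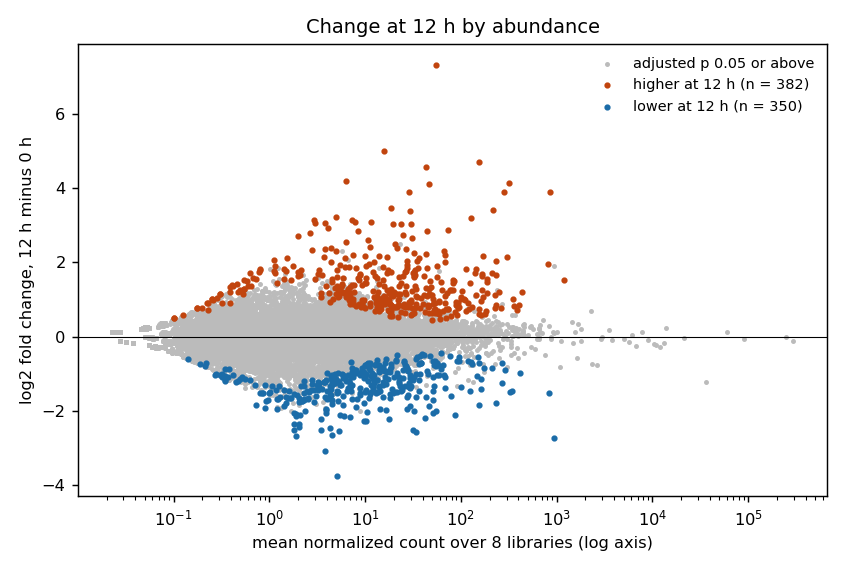
Each point is a gene, with its mean normalized count over the 8 libraries on a log axis and its log2 fold change at 12 h relative to 0 h. Red points are the 382 genes called higher and blue points the 350 called lower, while grey points were not called. The points reach 7.33 upwards and 3.75 downwards on the log2 scale, and most of the genes to the far right lie close to 0.

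The median change was 1.21 on the log2 scale among the higher genes, with quartiles of 0.89 and 1.74, and -1.26 among the lower genes, with quartiles of -0.98 and -1.57. Over all genes averaging 4 or more normalized counts the median change was 0.07. Changes of 2-fold or more were seen for 254 of the higher and 253 of the lower genes. The large changes were mostly rises, with 63 genes at least 4-fold higher against 31 at least 4-fold lower, and 24 at least 8-fold higher against 2 at least 8-fold lower. These folds are on the scale of log2(normalized count + 0.5), which understates the change of low genes.

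The cows moved together. Of the 382 higher genes, 379 were higher in 4 of 4 cows, and of the 350 lower genes, 341 were lower in 4 of 4 cows, where 21.7% of all genes tested moved the same way in every cow. The 4 libraries at 12 h were all above the 4 at 0 h for 365 of the higher genes (95.5%), against 5.61% of all genes tested. They were all below for 326 of the lower genes (93.1%), against 5.1% of all genes tested. These counts come from the libraries that gave the calls and describe them.

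Among called genes averaging 4 or more normalized counts and moving one way in every cow, ENSBTAG00000009870 had the largest rise. It had 0, 0, 0.301 and 0 normalized counts at 0 h in cows 1 to 4, and 86.5, 35.2, 224 and 95.6 at 12 h. It was thus nearly absent before DEX, with 1 read in the 4 libraries together, and was well above that in every cow at 12 h. Its mean was 110.4 ± 80.4 normalized counts (SD, n = 4) at 12 h, a log2 change of 7.33 ± 0.38 (SE), at an adjusted p of 6.07e-10 in limma. With 2200 reads at 12 h against 1 read at 0 h, the ratio of the pooled levels was 1499, with a 95% exact interval of 269 to 59247 that covers counting error only.

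ENSBTAG00000000512 had the next largest rise. It had 1.02, 0.219, 0.301 and 0.579 normalized counts at 0 h in cows 1 to 4, and 38.3, 24.5, 27.7 and 34.9 at 12 h. The groups were far apart and the cows differed little at 12 h, with 31.3 ± 6.36 normalized counts (SD, n = 4). The log2 change was 4.99 ± 0.38 (SE), at an adjusted p of 1.06e-07 in limma. The 0 h level rests on 7 reads and the 12 h level on 628, a ratio of 61.1 with a 95% exact interval of 29.5 to 152.7 for counting error. Both identifiers kept their direction and an adjusted p under 0.05 in all 21 alternative analyses.

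By the same rule the largest fall was that of ENSBTAG00000017328. At 0 h it had 7.67, 16.7, 8.12 and 7.53 normalized counts in cows 1 to 4, and at 12 h it had 0, 0.441, 0.41 and 0.2. The gene was thus at or near the limit of detection in every cow at 12 h, where 5 reads remained against 146 at 0 h. The log2 change was -3.75 ± 0.43 (SE), at an adjusted p of 1.36e-05 in limma, and the ratio of 0 h over 12 h was 42.8 with a 95% exact interval of 17.9 to 133.9 for counting error.

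ENSBTAG00000020527 had the next largest fall and, unlike the genes above, was abundant. It had 1479, 1618, 2039 and 1436 normalized counts at 0 h in cows 1 to 4, and 241, 307, 237 and 204 at 12 h. The mean was 1643 ± 275 (SD, n = 4) before DEX and 247 ± 43.2 at 12 h, which is 6.65-fold lower, so the spread between cows was small against the fall. The log2 change was -2.73 ± 0.27 (SE), at an adjusted p of 3.09e-06 in limma, resting on at least 1018 reads in each library. Over the 21 alternatives it ranged from -2.84 to -2.61, with an adjusted p under 0.05 in each.

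**Figure D2:**
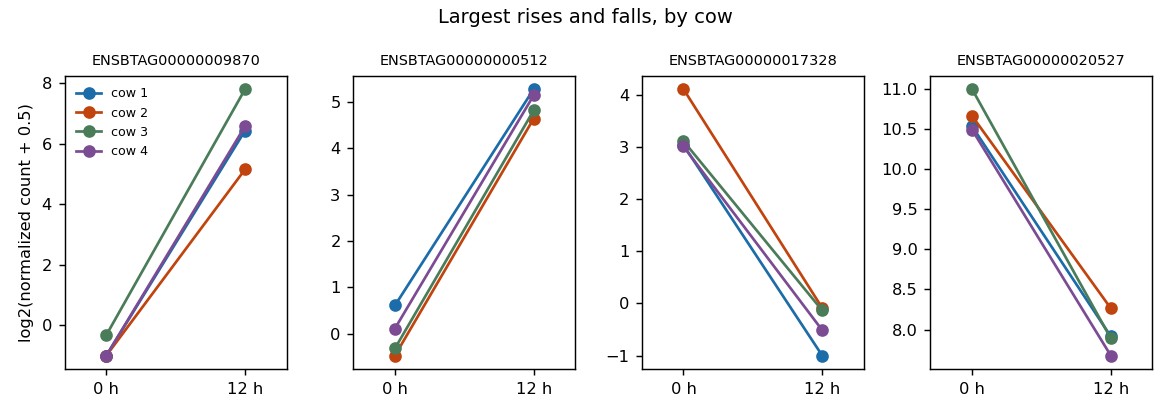
Each panel shows 1 gene, with log2(normalized count + 0.5) at 0 h and 12 h on the vertical axis (each panel with its own range) and a line for each of the 4 cows. ENSBTAG00000009870 and ENSBTAG00000000512 rose and ENSBTAG00000017328 and ENSBTAG00000020527 fell in 4 of 4 cows, and in no panel do the time points overlap.

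The genes that followed in rank were smaller in change. The gene with the third largest rise had 5.88, 8.78, 10.2 and 19.1 normalized counts at 0 h in cows 1 to 4, and 286, 137, 446 and 328 at 12 h, a log2 change of 4.71 ± 0.38 (SE), at an adjusted p of 1.75e-07 in limma. The 10 genes ranked 3 to 12 among the rises had log2 fold changes of 3.41 to 4.71, from means of 0.174 to 92.3 normalized counts at 0 h to means of 12.5 to 1631 at 12 h. The highest means were those of the gene of rank 10, at 92.3 ± 110 and 1631 ± 1536 (SD, n = 4), and its groups overlapped.

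Among the falls, the gene of rank 4 had a small spread at 12 h. It had 76.5, 56.4, 51.1 and 52.1 normalized counts at 0 h in cows 1 to 4, and 8.65, 10.1, 10.1 and 8.62 at 12 h, a log2 change of -2.58 ± 0.16 (SE), at an adjusted p of 6.32e-09 in limma. The 10 genes ranked 3 to 12 among the falls had log2 fold changes of -2.64 to -2.17, from means of 7.62 to 69.1 normalized counts at 0 h. The groups overlapped for the genes of ranks 9 and 10.

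How often a gene was called depended on its abundance. Among genes with a mean of 100 to 1000 normalized counts over the 8 libraries, 48 of 320 were higher and 22 were lower (21.9% called). Among those with 10 to 100, 200 of 2564 were higher and 148 lower (13.6%), and among those with 1 to 10, 96 of 4599 were higher and 148 lower (5.31%). Below a mean of 1 normalized count, 37 genes were called higher and 32 lower of 6386 (1.08%), and these rest on few reads. The excess of higher genes between 100 and 1000 held under all 4 scalings tried, with 54.8% to 68.6% higher, and so did the excess of lower genes between 1 and 10, with 30.2% to 39.9% higher. Between 10 and 100 the direction turned, with 57.5% higher with the authors' normalization but 47.5% after quantile normalization and 46.3% with totals that leave out the 20 most abundant genes.

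**Figure D3:**
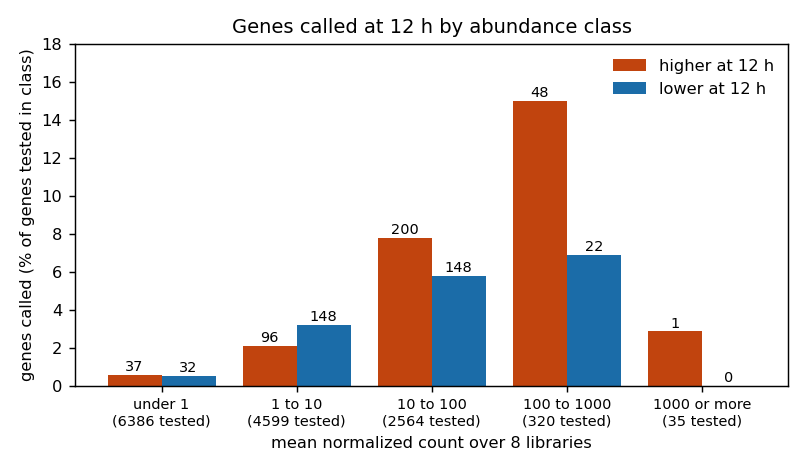
Bars give the percentage of tested genes called higher (red) or lower (blue) at 12 h in 5 classes of mean normalized count, with the number of genes above each bar. The share called is largest for 100 to 1000 normalized counts, at 48 higher and 22 lower genes of 320, and 1 of 35 genes was called at 1000 or more.

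A few transcripts dominated the libraries. The pair of genes most abundant at 0 h held 54.4%, 47.7%, 52.4% and 51.5% of reads in cows 1 to 4 at 0 h, and 54.4%, 49.5%, 50.1% and 52% at 12 h. Their share was higher in cows 2 and 4, lower in cow 3 and alike in cow 1. The most abundant gene had a log2 change of -0.12 and was lower in 4 of 4 cows. The next one had a log2 change of -0.0035 and was higher in 3 of 4 cows. Both had an adjusted p of 1 in limma, where such genes had wide errors, as given below. The 10 most abundant genes together held 79.57%, 75.51%, 77.14% and 75.04% of reads in cows 1 to 4 at 0 h, and 74.81%, 75.51%, 74.97% and 74.19% at 12 h. The share was lower at 12 h in cows 1, 3 and 4 and the same to 4 digits in cow 2. The mean was 76.8% ± 2.04 (SD, n = 4) at 0 h and 74.9% ± 0.544 at 12 h, a difference of -1.94 percentage points that was -1.005 without cow 1. Tests on 4 cows cannot reach an exact paired permutation p (two-sided) below 0.125.

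The gene of rank 5 in abundance at 0 h was the member of these 10 that moved most. It had 71146, 45224, 34984 and 53965 normalized counts at 0 h in cows 1 to 4, and 23280, 24644, 15743 and 22735 at 12 h. Every 12 h library was below every 0 h library. Its share of reads was 4.67% ± 1.00 (SD, n = 4) at 0 h and 2.09% ± 0.392 at 12 h, while the other 9 genes together held 72.1% ± 2.01 and 72.8% ± 0.603, with more at 12 h in cows 2 and 4 and less in cows 1 and 3. The log2 change was -1.22 ± 0.39 (SE), with an adjusted p of 0.0747 in limma, so the gene was not among the 350 called lower. With cow as a fixed term, which pairs the libraries of a cow, the adjusted p was 0.0454, and 13 of the 21 alternatives were past the threshold, among them limma-voom (adjusted p = 2.61e-04) and DESeq2 (adjusted p = 1.25e-08). The adjusted p lay between 7.80e-17 with edgeR and 0.293 without cow 4 in these 21. The most abundant genes had wide errors in the model. The standard error of the most abundant gene was 0.853, although its libraries varied around their time point means with an SD of 0.208 on the log2 scale. Of the 35 genes with a mean of 1000 or more, 1 was called (2.86%), against 4 with limma-voom. With cow as a fixed term, 4 were called with limma, 4 with DESeq2 and 7 with edgeR. A missing call therefore says little for this class.

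**Figure D4:**
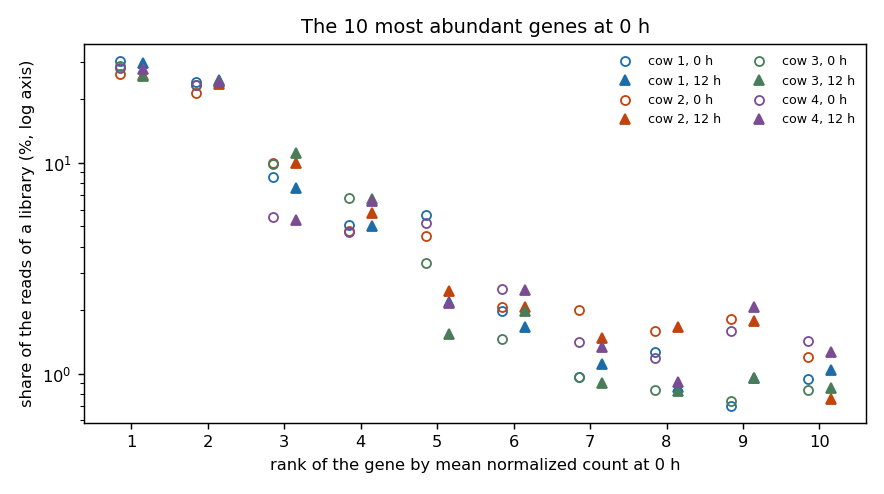
The share of each library's reads (%, log axis) held by each of the 10 genes most abundant at 0 h, with open circles for 0 h, filled triangles for 12 h and a colour for each cow. For the gene of rank 5 the triangles, at 1.54% to 2.47%, all lie below the circles, at 3.35% to 5.67%.

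The gene of this class that was called had 660, 551, 631 and 609 normalized counts at 0 h in cows 1 to 4, and 1964, 1431, 1983 and 1713 at 12 h. It ranked 51 at 0 h, and its mean rose from 613 ± 46.2 (SD, n = 4) to 1773 ± 259, a log2 change of 1.52 ± 0.22 (SE), at an adjusted p of 2.18e-04 in limma. It was past the threshold in all 21 alternatives.

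The genes called higher held 0.989% ± 0.0655 of all normalized counts at 0 h and 2.75% ± 0.196 at 12 h (SD, n = 4), and the genes called lower held 1.43% ± 0.129 and 0.622% ± 0.0525. These shares describe genes chosen on the same libraries and are not tested. They leave out the gene of rank 5, which was not called and alone held 4.67% of reads at 0 h, and they depend on how few of the most abundant genes were called.

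Some genes had reads at one time point only. Of 13904 genes tested, 41 had no read at 0 h in any cow and a read in 4 of 4 cows at 12 h. The opposite pattern was seen for 6. The 0 h libraries were shallower, and when every library was thinned to 1804120 reads the numbers were 21 and 17. Thinning can remove the few reads of a gene, and the 21 include ENSBTAG00000009870, which had 1 read at 0 h before it. The number of genes with a read in thinned libraries was 8958 ± 190 (SD, n = 4) at 0 h and 8924 ± 216 at 12 h, and was higher at 12 h in 1 of 4 cows (exact paired permutation test, two-sided, p = 0.625).

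The 2 time points differed more than the cows did. Over 1656 genes averaging 20 or more normalized counts in thinned libraries, the SD of the log2 ratio between libraries of different cows was 0.483 to 0.538 at 0 h and 0.479 to 0.541 at 12 h. Between the 0 h and 12 h libraries of one cow it was 0.751 to 0.843, above every distance between cows at a single time point. Between different cows at different time points it was 0.801 to 0.904. Over all these genes the spread between cows was alike before and after DEX, with a median SD of 0.23 at 0 h and 0.226 at 12 h. Without cow 1 it was 0.208 and 0.221. Among the 182 of them called higher it was 0.282 and 0.25, and among the 107 called lower 0.23 and 0.256.

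Each cow was also set against genes called without it. For the 525 genes called without cow 1, the median log2 ratio of higher and lower genes in cow 1 was 1.18 and -1.30, against 1.33 and -1.37 in the other cows. Cow 2 had the smallest medians in size, at 0.99 and -0.99 where the other cows had 1.35 and -1.43. Cow 3 had medians of 1.49 and -1.33 against 1.55 and -1.50, and cow 4 had 1.34 and -1.13 against 1.51 and -1.42. The direction was the same as in the other cows for 94.5%, 93.3%, 95.9% and 91.4% of the genes in cows 1 to 4. Over all 4839 genes averaging 4 or more normalized counts the same share was 71.8%, 69.6%, 70.5% and 70.0%. The genes were chosen on the other cows, so the medians of those cows lean towards larger changes. A smaller median in the cow left out is therefore no measure of a weaker response, and the genes differ from cow to cow. Genes of 1 cow share their libraries and are not independent replicates, so these are descriptions.

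**Figure D5:**
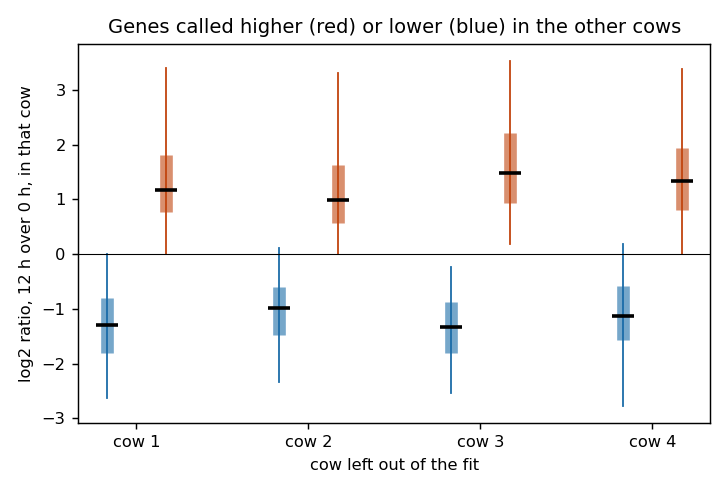
For each cow, the log2 ratio of 12 h over 0 h in that cow of the genes called higher (red) or lower (blue) in a fit of the other 3 cows. Black marks are medians, thick bars the quartiles and thin lines the 5th to 95th percentile. The medians lie between 0.99 and 1.49 for higher genes and between -1.33 and -0.99 for lower genes, closest to 0 in cow 2.

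The level at 12 h was compared with that at 24 h, taken from another gland of the same cows, in the same model. Of all genes tested, 325 (2.34%) differed. This comparison and that with 0 h share the 12 h libraries, and genes chosen for a high or low level at 12 h lean towards a difference from 24 h, so the values at 24 h are given as a description. ENSBTAG00000009870 had 17.3 ± 5.61 normalized counts (SD, n = 4) at 24 h, and its log2 change of 2.40 from 24 h up to 12 h had an adjusted p of 0.00244 in limma. ENSBTAG00000000512 had 11.9 ± 6.53 at 24 h (adjusted p = 0.0456 in limma), and ENSBTAG00000020527 had 686 ± 330 (adjusted p = 0.00998 in limma). The means of all 3 at 24 h lay between those at 0 h and 12 h. ENSBTAG00000017328 had 0.799 ± 0.789 at 24 h, and its difference from 12 h had an adjusted p of 0.628 in limma. This gene was at or near the limit of detection at 12 h, and had 0.67, 0, 0.64 and 1.89 normalized counts at 24 h in cows 1 to 4. So few reads cannot show whether its level differed between 12 h and 24 h.

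The study prints a pair of genes by identifier alone. It reports ENSBTAG00000047609 for a negative association with milk fat content over time, after adjustment for milk yield. It lists ENSBTAG00000047136 among translation genes upregulated at 24 h. Neither statement is about 12 h against 0 h, so the values below are no check of them. ENSBTAG00000047609 had 417, 172, 136 and 53.3 normalized counts at 0 h in cows 1 to 4, and 104, 92.3, 66.9 and 27.3 at 12 h. It was lower in 4 of 4 cows, while the cows differed widely at 0 h and the groups overlapped. The log2 change was -1.21 ± 0.51 (SE), at an adjusted p of 0.212 in limma, where the low correlation by cow (0.0325) hardly pairs the libraries. With cow as a fixed term the same change had an adjusted p of 9.35e-04 in limma, and 6.52e-04 on the 0 h and 12 h libraries alone. DESeq2 and edgeR, also with cow as a fixed term, gave 3.19e-07 and 5.00e-11. It was also past the threshold without cow 4 (adjusted p = 0.0257), where the log2 change was -1.30, and the adjusted p of all 21 lay between 5.00e-11 with edgeR and 0.413 without cow 1. ENSBTAG00000047136 had 187, 181, 163 and 196 normalized counts at 0 h and 210, 216, 220 and 205 at 12 h in cows 1 to 4. Every 12 h library was above every 0 h library, yet the difference was small, with a log2 change of 0.23 ± 0.15 (SE), at an adjusted p of 0.482 in limma, and in 0 of the 21 alternatives was it past the threshold.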

How the data were processed

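Mammary biopsies were sequenced as QuantSeq 3′ tag libraries. Reads were trimmed with HTStream, aligned to Bos taurus UMD3.1 with STAR 2.6.0c and counted per Ensembl gene, and the authors deposited normalized counts, a signal equal to reads multiplied by a constant for each library. The scaling method is not given in the sources used here. Every value was a whole multiple of its library's constant within 0.01 reads (100% of values), so reads were recovered. The reference table used (ARS-UCD2.0) holds no Ensembl identifiers, so the lists by symbol were not analysed here.

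The test was limma 3.58.1 (R 4.3.3) on log2(normalized count + 0.5) over all 15 libraries, with time point as the factor, a variance trend and a consensus correlation by cow (0.0325). All 13904 genes with a read were tested, without a filter on low values. Alternatives used limma-voom, edgeR 4.0.16 and DESeq2 1.42.0 on recovered reads, other pseudocounts, filters and scalings, and each cow left out. In edgeR and DESeq2 cow was a fixed term. Tested on simulated reads for 12 h against 0 h (13360 genes), it called 45 of 100 genes with a true 2-fold change and 88 of 100 with a 4-fold change, and made 6 calls among the rest. The changed genes were drawn from those averaging 4 or more normalized counts over the 15 libraries, so the rates do not cover lower genes. The simulated libraries carried no correlation by cow. Cow numbers pair libraries because they come from the same animal. Deviations from the time point means correlated at 0.322 to 0.329 within each cow, and at -0.268 to 0.0555 between different cows. The consensus correlation of 0.0325 in the main model is lower than the values within cows and hardly pairs the libraries. Libraries of different cows differed by more than sampling noise.

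Genes were named by a rule. It took the 12 largest rises and 12 largest falls among called genes that averaged 4 or more normalized counts and moved one way in every cow, the 10 most abundant genes and those printed by the study. At most 2 identifiers in each direction are printed. The called gene of rank 51 and the genes described by rank among the rises and falls were singled out after their values were seen. The comparison, the lists and the rule were chosen with earlier results of these data known.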

Additional observations from a re-analysis of the deposited data

Results flagged for a closer look

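Of 22 groups of 4 libraries, some held a library far from the other cows by Dixon's test at the 95% level, where chance gives about 1.1. ENSBTAG00000017328 at 0 h stood at 16.68 normalized counts in cow 2, where cows 1, 3 and 4 had 7.53 to 8.12 (a gap of 0.935 of the range). The scaling factor at 0 h was inferred here from each library's constant and its recovered reads. It was 0.7968 in cow 1, where the others had 0.958 to 0.989 (a gap of 0.835 of the range). ENSBTAG00000009870 at 0 h stood at 0.3008 normalized counts in cow 3. That is 1 read against 0 in the other cows, for which the ratio is 1 by construction, so it is not counted against the number chance gives.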

How the results depend on the processing

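In 21 alternatives, the counts of genes called at 12 h, of higher and of lower genes mostly stayed within 1.5 times the reported ones. The exceptions were edgeR, which had cow as a fixed term and called 1133 genes (585 lower), and some fits with a cow left out. Leaving out a cow gave 368 to 565 genes, 206 to 313 higher and 162 to 252 lower, and fewer cows were then in the fit. The genes called at 12 h that also differed from 24 h numbered 149, but 248 when a gene had to reach 4 normalized counts in some library. With cow as a fixed term they numbered 206 with limma, 380 with edgeR and 256 with DESeq2. With a cow left out they numbered 40 to 118 (60 without cow 1, 40 without cow 3, 62 without cow 4). These genes were chosen on the 12 h libraries that both comparisons share. The causes of the higher counts of 248, 380 and 256 were not tested. For the replicate block, 675 genes were called without the correlation by cow and 899 with cow as a fixed term. The block changed the call of ENSBTAG00000047609 and of the gene of rank 5 in abundance, as given above, and of no other gene described by identifier. With limma-voom 839 genes were called, 670 of them among the 732. In all 21 alternatives 215 of the 732 were called (131 higher, 84 lower), of the 419 that every alternative tested. ENSBTAG00000017328 fell below the filter at a mean of 10. No gene described by identifier reversed. In simulated reads, 45 of 100 changes of 2-fold were detected, all placed in genes averaging 4 or more normalized counts.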
